A study of Bos taurus with 111 samples.

Results

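Muscle of a beef breed, the Charolais (CH), was compared with that of a dairy breed, the Holstein-Friesian (HF), in steers fed zero-grazed grass (ZG). In all, 39 of the 111 libraries of the series carried the ZG label, and 36 of them from 36 steers were analysed, 17 of 19 from CH steers and 19 of 20 from HF steers. The CH libraries comprised 9 from steers of low residual feed intake (L-RFI) and 8 from steers of high residual feed intake (H-RFI). The HF libraries comprised 9 from L-RFI and 10 from H-RFI steers. A library was left out if it held under 1000000 reads counted on genes, which removed 2, or if it was that of CH H-RFI steer 571, described below.

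All steers received cut grass, mainly perennial ryegrass (196 g dry matter per kg), ad libitum in this period. It came after a high concentrate phase (H1) and before another (H2). Residual feed intake is the difference between what an animal eats and what its size and growth predict, and it was measured over 70 days. The steers sequenced were the extremes of the RFI ranking within each breed and diet, so that neither group represents its breed at random. At the start of the experiment the CH steers were on average 283 days old and the HF steers 306 days, and at the start of the ZG phase they weighed on average 519 kg and 441 kg. Breed, body weight and age therefore cannot be told apart here, nor can breed and any unlabelled batch. The dry matter, ages and weights given are those of the sample labels, and the study's methods state other values for most of them. Biopsies of M. longissimus thoracis et lumborum, the muscle along the back that forms the loin, were taken at the end of the period.

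Skeletal muscle is built of fast and slow fibres, which differ in the myosin heavy and light chains of their thick filaments and in how much they rely on glycolysis or on oxidation. Beef breeds were selected for muscle mass and dairy breeds for milk, and cattle of the dairy type are known for depositing fat within muscle at a lighter weight. A biopsy also holds fat cells, vessels, blood and immune cells, and in such bulk tissue fewer cells of a type and less RNA per cell cannot be told apart.

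The analysed libraries held 3875025 to 49093603 reads on genes, and mean depth did not differ detectably between the breeds (two-sided permutation test, p = 0.803). A count of 3 reads, taken as the floor, corresponded to 0.0611 to 0.774 counts per 1000000 reads (CPM) in these libraries. Levels below are in CPM after TMM scaling for library composition, and differences are log2 fold changes of CH minus HF with their standard errors (SE). The median TMM factor was 0.942 in CH and 1.15 in HF (permutation p = 0.0492, Benjamini-Hochberg adjusted p = 0.277 over 6 library measures). The share of reads that fell on no annotated gene had a median of 10.1% in CH and 12.6% in HF (permutation p = 0.0923, adjusted p = 0.277). The first principal component held 57.3% of the variance. Its Spearman correlation with the share of reads on no annotated gene was −0.887, where the sign of a component is arbitrary. In all, 8 libraries had a median rank correlation under 0.9 with the others (CH steers 1843, 1492, 1831 and 1834 and HF steers 1668, 5632, 2064 and 5616). Gene symbols were known for 116 of the tested genes, which the study had listed because they differed between RFI classes or by breed and diet in these same libraries, so the genes that can be named are not a random sample.

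The library of steer 571 went against its muscle label. Its ALB level, for serum albumin, was 101449 CPM before TMM scaling, whereas the analysed libraries ranged from 14.6 to 8576 CPM with a median of 58.5. ACTC1 and MYH8, 2 muscle genes, were at 0 counts in it, and MYL6B, a slow myosin light chain, was at 0.217 CPM against 29.9 to 2404 CPM elsewhere. The heart-type myosin MYH6 and the muscle LIM protein gene CSRP3 were at 147 to 669 CPM and 49.7 to 2406 CPM in the analysed libraries, so all of these carried muscle transcripts. No gene of the list of general skeletal muscle identity genes carried a symbol here.

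Of 10211 genes tested with RFI class as a covariate, 52 (0.509%) passed an adjusted p under 0.1 with a fold change above 1.5. Of these, 16 (0.157%) were higher in CH and 36 (0.353%) were higher in HF. Their absolute log2 fold changes ran from 0.61 to 2.92 with a median of 0.96, and the median over all genes was −0.05. At an unadjusted p under 0.05 there were 1410 genes (13.8%), where 510.55 are expected by chance among independent genes. The 2 breeds overlapped in range for every one of the 52 genes and, over all genes, 0 (0%) had ranges that did not overlap. The genes with a symbol comprised 5 of the 52, which is 4.31% of the 116, and they were 2 higher in CH (MYH4 and MICAL2) and 3 higher in HF (ACTC1, BDH1 and ACSM1).

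The number of calls changed when single steers were left out. All but 1 of the calls had an adjusted p from 0.0911 to 0.0992, just under the threshold of 0.1. With 1 steer left out it ranged from 1 to 198, and in 21 of 36 such fits it was 1 or 2. It moved by more than 1.5 times in 31 fits. It fell without CH steers 1483, 1484, 1492, 1816, 1831, 1834, 427, 449, 545, 788, 1100, 307, 437 and 1843 and without HF steers 1639, 1961, 2064, 2065, 2069, 2272, 5605, 5612, 5616 and 1668. It rose without HF steers 1782, 5632, 5633 and 2242 and CH steers 1879, 310 and 318. With an adjusted p under 0.05 the count was 1, with the 8 libraries of low rank correlation left out it was 0 (970 genes at an unadjusted p under 0.05), and with the summed level of the plasma protein genes as a covariate it was 0 (1252 genes). With the share of reads on no gene as a covariate the count was 40, of which 21 were among the 52, and the split was 3 higher in CH and 37 higher in HF. Of the 36 fits with 1 steer left out, MYH4 passed the thresholds in 15, ACTC1 and BDH1 in 14 each, and MICAL2 and ACSM1 in 11 each.

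**Figure D1:**
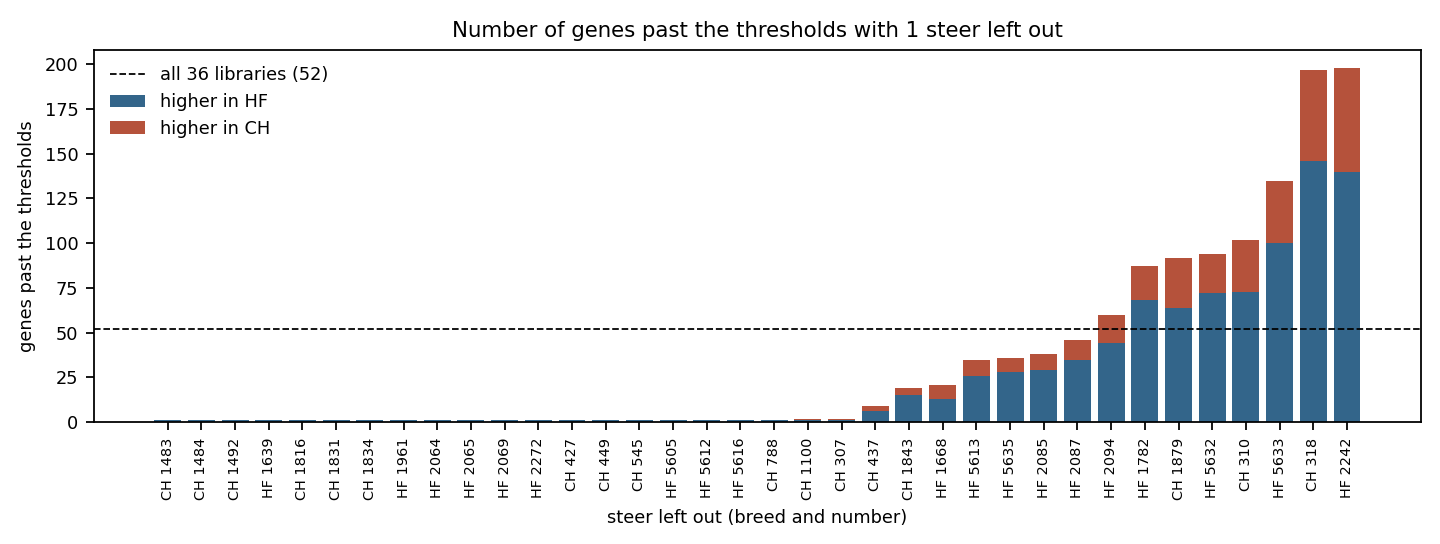
Number of genes past the thresholds (vertical axis) when the steer named on the horizontal axis was left out, divided by direction. Most bars stand at 1 or 2 genes and the tallest at 198, against 52 with all 36 libraries (dashed line).

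The gene with the smallest p-value was ENSBTAG00000024492, which has no symbol in the study's list. Its level ran from 0.898 to 4.49 CPM in CH with a median of 1.95, and from 1.86 to 19.4 CPM in HF with a median of 4.05. In HF, 18 of 19 steers exceeded the CH median, and 9 exceeded every CH steer. It was lower in CH by a log2 fold change of −1.41 (SE 0.26, adjusted p = 0.0324) and passed the thresholds in all 36 fits with 1 steer left out. In the steers of H1 and H2 that gave no analysed ZG library the log2 fold change was −0.33 and −0.06.

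Among contractile genes, MYH4, which encodes a fast myosin heavy chain, was higher in CH. Its level ran from 2.18 to 43.2 CPM in CH with a median of 3.67, and from 0.702 to 3.64 CPM in HF with a median of 2.27. No HF steer exceeded the CH median, 16 of 17 CH steers exceeded the HF median, and 1 CH steer, L-RFI steer 318, stood far above the rest at 43.2 CPM. The log2 fold change was 1.37 (SE 0.31, adjusted p = 0.0911). Without steer 318 it was 0.83 (adjusted p = 0.0377). MYH4 belongs to a cluster of near-identical myosin genes, so its low counts could include reads of the abundant members and are uncertain.

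MICAL2, an enzyme that oxidises actin and so takes filaments apart, was also higher in CH. It ranged from 19.3 to 274.3 CPM in CH with a median of 48.0, and from 2.16 to 48.2 CPM in HF with a median of 25.0. In CH 8 of 17 steers exceeded every HF steer, and in HF 6 of 19 lay below every CH steer, the lowest being H-RFI steer 5605. The log2 fold change was 1.23 (SE 0.30, adjusted p = 0.0917). It fell short of the thresholds with the share of reads on no gene as a covariate (0.79, adjusted p = 0.147).

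ACTC1, the cardiac alpha actin that skeletal muscle uses during development and repair, was higher in HF. The CH levels ran from 3.91 to 23.3 CPM with a median of 9.97, and the HF levels from 3.60 to 310.8 CPM with a median of 17.3. In HF, 6 of 19 steers exceeded every CH steer and L-RFI steers 2065 and 1961 stood at 310.8 and 233.3 CPM, while the rest overlapped with CH. It was lower in CH by a log2 fold change of −2.04 (SE 0.49, adjusted p = 0.0911). ACTC1 is close in sequence to other actins, so its counts are uncertain in the same way as those of MYH4.

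BDH1 encodes the mitochondrial enzyme that interconverts the ketone bodies 3-hydroxybutyrate and acetoacetate, and in ruminants 3-hydroxybutyrate is also formed in the rumen wall. Its level was 0.756 to 4.65 CPM in CH with a median of 2.18, and 1.03 to 51.9 CPM in HF with a median of 5.20. Of the HF steers, 18 of 19 exceeded the CH median and 10 exceeded every CH steer, with H-RFI steers 2272 and 5605 at 51.9 and 44.6 CPM. The log2 fold change was −1.78 (SE 0.40, adjusted p = 0.0911). With steer 2272 left out it was −1.50 (adjusted p = 0.111).

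ACSM1, which activates medium-chain fatty acids, was the third named gene higher in HF. It ran from 0.748 to 9.14 CPM in CH with a median of 2.00, and from 0.742 to 73.8 CPM in HF with a median of 6.30. In HF 7 of 19 steers exceeded every CH steer, and H-RFI steer 5616 was the highest. The log2 fold change was −1.77 (SE 0.45, adjusted p = 0.0959), and without steer 5616 it was −1.25 (adjusted p = 0.218). The same steer had the highest summed level of plasma protein genes, and the left-out library of steer 571 held ACSM1 at 1547 CPM. With that summed level as a covariate the log2 fold change of ACSM1 was −0.998 (adjusted p = 0.270).

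**Figure D2:**
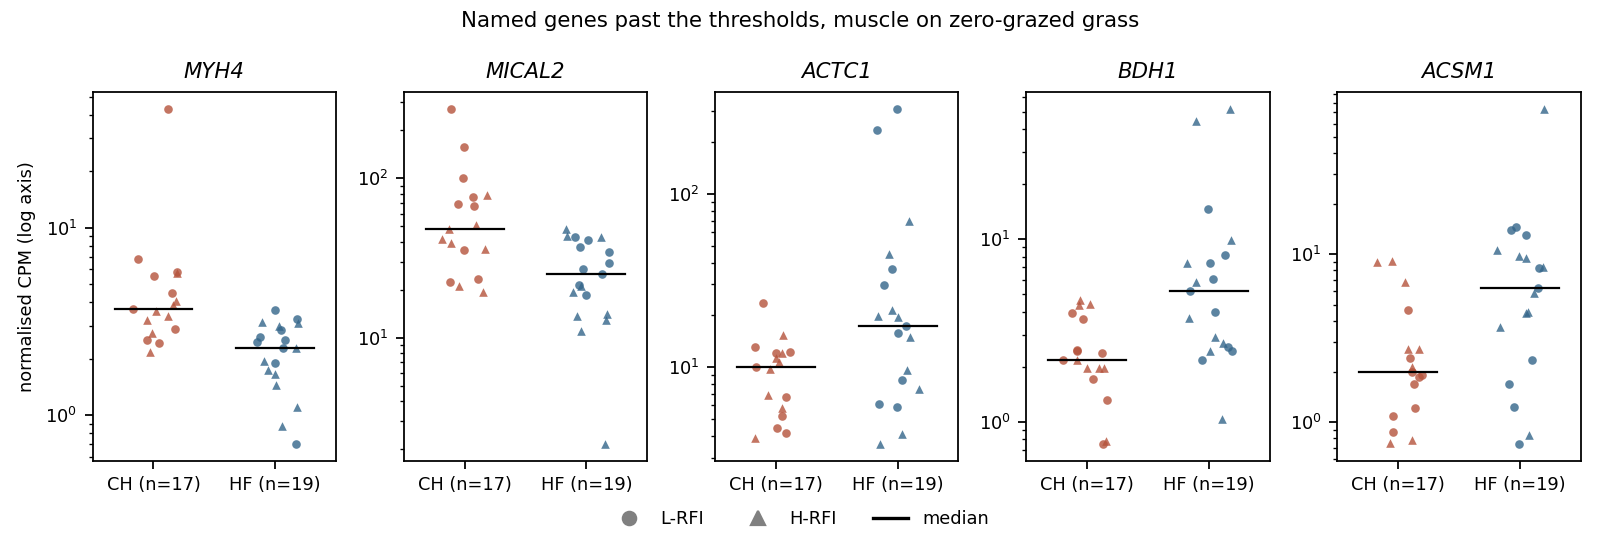
Normalised CPM (log axis) of the 5 named genes past the thresholds, 1 point per library, by breed, with L-RFI steers as circles, H-RFI steers as triangles and the median as a bar. MYH4 and MICAL2 have higher medians in CH (3.67 against 2.27 and 48.0 against 25.0 CPM), ACTC1, BDH1 and ACSM1 have higher medians in HF, and all 5 overlap.

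Further genes without a symbol passed the thresholds. ENSBTAG00000006762 was higher in CH by a log2 fold change of 0.85 (SE 0.18, adjusted p = 0.0911), at 4.59 to 18.7 CPM in CH and 2.84 to 9.51 CPM in HF. ENSBTAG00000018204 was among the most abundant transcripts, at 22848 to 70234 CPM in CH with a median of 46583 and 9669 to 49395 CPM in HF with a median of 20979. All 17 CH steers exceeded the HF median, and the log2 fold change was 0.85 (SE 0.19, adjusted p = 0.0911). ENSBTAG00000012991 was higher in HF by −1.53 (SE 0.34, adjusted p = 0.0911), with 9 of 19 HF steers above every CH steer.

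Plasma protein genes, which liver expresses for export into blood, had the lowest median of the gene groups described, although none passed the thresholds. All 10 tested members (C5, FGB, FGG, CP, ORM1, PLG, HPX, AHSG, VTN and ALB) were below 0 and at an unadjusted p under 0.05, with a median log2 fold change of −2.20 and a smallest adjusted p of 0.131, and SERPINA3 was too low to be tested. Of all 116 tested genes with a symbol, 81 were below 0 and 37 were at an unadjusted p under 0.05. FGB, a fibrinogen chain, ran from 4.05 to 67.5 CPM in CH with a median of 10.3 and from 2.71 to 1779 CPM in HF with a median of 25.2 (log2 fold change −2.42, SE 0.71, adjusted p = 0.131). ALB ran from 18.2 to 508.4 CPM in CH with a median of 53.3 and from 12.9 to 5638 CPM in HF with a median of 119.5 (−1.99, SE 0.63, adjusted p = 0.141). The highest value of ALB was that of HF steer 5616, 2 of 17 CH steers exceeded the HF median and the breeds overlapped over nearly the whole CH range. Without steer 5616 the log2 fold change of ALB was −0.91 (adjusted p = 0.455) and that of FGB −1.25 (adjusted p = 0.287).

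The summed level of the plasma protein genes was 30.4 to 760.0 CPM in CH with a median of 93.0, and 24.4 to 10373 CPM in HF with a median of 206.5. Before TMM scaling the highest analysed library reached 15947 CPM and the left-out library of steer 571 stood at 164179 CPM. That library exceeded every analysed library at 18 of the 36 genes higher in HF (50%) and at 0 of the 16 genes higher in CH, and at 32.3% of all genes tested. The part of such RNA in the calls was not tested further than by the fit with the summed level as a covariate, given above.

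Adipocyte genes were below 0 as a group without passing the thresholds. The tested members were FABP4, the fatty acid binding protein of fat cells, TRARG1, which traffics with the insulin-responsive glucose transporter, and CIDEC, a lipid droplet protein. All 3 were at an unadjusted p under 0.05, with a median of −1.61 and a smallest adjusted p of 0.151, and ANGPTL8 was too low to be tested. FABP4 ran from 0 to 18.7 CPM in CH with a median of 1.38 and from 1.05 to 32.1 CPM in HF with a median of 9.27 (−1.66, SE 0.54). In HF, 17 of 19 steers lay above the CH median, and 8 of 17 CH steers lay below every HF steer. The summed level of the 4 genes was 0.520 to 53.3 CPM in CH with a median of 5.07, and 3.34 to 96.7 CPM in HF with a median of 19.2.

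Genes of fatty acid synthesis gave a median of −1.66 over 3 tested members, all at an unadjusted p under 0.05, with a smallest adjusted p of 0.131. Their summed level differed less, at 23.1 to 175.0 CPM in CH with a median of 43.5 and 19.6 to 318.5 CPM in HF with a median of 50.7. ELOVL6, which lengthens palmitate, ran from 0 to 4.43 CPM in CH with a median of 0.421 and from 0 to 14.4 CPM in HF with a median of 1.86 (−1.66, SE 0.49). Its CH median lay within the range of the 3-count floors of the CH libraries (0.0892 to 0.662 CPM), so this difference is less certain. THRSP, a lipogenic regulator, had −1.94 (SE 0.70, adjusted p = 0.200). FASN, the fatty acid synthase, ran from 22.2 to 137.6 CPM in CH and from 18.1 to 262.0 CPM in HF (−0.87, SE 0.39, adjusted p = 0.318). Among 4 genes of fatty acid uptake and oxidation, ACSM1 passed the thresholds, and the 3 others, SLC27A6, PDK4 and PLIN5, lay between −0.42 and −0.01. PDK4, a kinase that inhibits pyruvate dehydrogenase, had medians of 125.6 CPM in CH and 193.9 CPM in HF (−0.10, SE 0.41, adjusted p = 0.909).

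Of the genes of acetate, ketone and amino acid use, BDH1 passed the thresholds. SDS, which breaks down serine, had −1.87 (SE 0.63, adjusted p = 0.162), and CKB, the brain-type creatine kinase, had −1.04 (SE 0.42, adjusted p = 0.264). Of 2 tested detoxification genes, GSTM3, a glutathione transferase, had −1.01 (SE 0.39, adjusted p = 0.247), with medians of 22.0 CPM in CH and 63.2 CPM in HF.

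Slow-type contractile genes did not pass the thresholds in either direction. MYL6B had −0.87 (SE 0.42, adjusted p = 0.345), and the median over MYL6B, CSRP3 and MYH6 was −0.62. The summed level of these genes had the higher median in CH, at 674.2 CPM against 628.2 CPM in HF. Among 5 developmental and denervation-type muscle genes, ACTC1 was the 1 call, MYH8, the perinatal myosin heavy chain, had 0.78 (SE 0.36, adjusted p = 0.332), TNNT2, the heart-type troponin T, had −0.51 (SE 0.20, adjusted p = 0.249), and the group median was −0.51. INHA, the inhibin alpha chain and the only growth regulator tested, had −1.16 (SE 0.40, adjusted p = 0.174). MSTN, MYH1, MYH2, MYH7, PVALB, SCD and ADIPOQ had no symbol matched here and were not analysed.

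Immune genes did not pass the thresholds. The interferon-induced genes IDO1, MX1 and CASP4 had a median of −0.94, all at an unadjusted p under 0.05. IDO1, which degrades tryptophan, ran from 0 to 4.94 CPM in CH with a median of 1.25 and from 0.407 to 58.1 CPM in HF with a median of 2.34 (−1.82, SE 0.52, adjusted p = 0.130), and HF steer 2272 was the highest. The 4 tested lymphoid markers (LCP1, CD3E, SPN and PTPRC) had a median of −0.68, with LCP1 the lowest at −0.78 (SE 0.38, adjusted p = 0.360). Their summed level with the 3 untested members was 2.73 to 46.2 CPM in CH and 2.93 to 96.1 CPM in HF. PLEK, the 1 of 4 myeloid markers tested, had 0.94 (SE 0.34, adjusted p = 0.195), whereas the summed level of the 4 had the lower median in CH, at 1.32 to 32.1 CPM with a median of 3.30 in CH and 2.68 to 45.4 CPM with a median of 6.52 in HF.

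Immediate early genes, which respond within minutes to handling and exertion, showed no such offset. None of 16 was at an unadjusted p under 0.05, 9 were above 0 and 7 below, and the median was 0.05. Their summed level overlapped over almost the whole range, at 352 to 3191 CPM in CH and 176 to 3692 CPM in HF. The 8 glucocorticoid and stress-responsive genes had a median of 0.02, with CEBPD the lowest in p at −0.49 (SE 0.24, adjusted p = 0.348). The 2 mitochondrially encoded genes with a symbol had a median of −0.02, and NDUFA3, a subunit of respiratory complex I, had −0.17. ANGPTL2 of the matrix genes had −0.25 and SOX18 of the endothelial markers had −0.44, neither at an unadjusted p under 0.05. Over all 116 genes with a symbol, 35 were above 0 and 81 below with a median of −0.39, against 4398 and 5813 over all genes. At an unadjusted p under 0.05 were 37 of these 116, against 1410 of all 10211 genes.

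**Figure D3:**
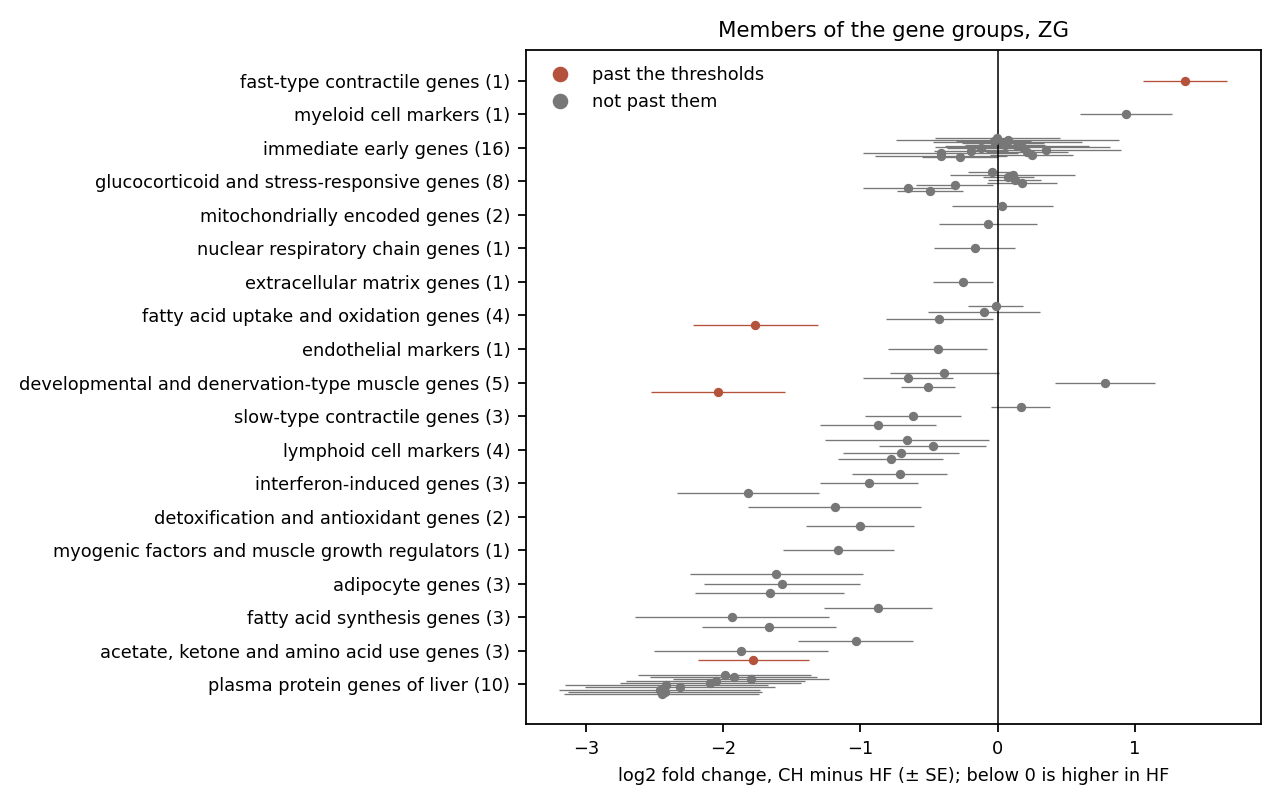
Log2 fold change of CH minus HF with its SE (horizontal axis) for each tested member of the gene groups (rows, number tested in brackets), with genes past the thresholds in red. The plasma protein genes lie furthest to the HF side (median −2.20), and the immediate early genes centre near 0 (median 0.05).

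**Figure D4:**
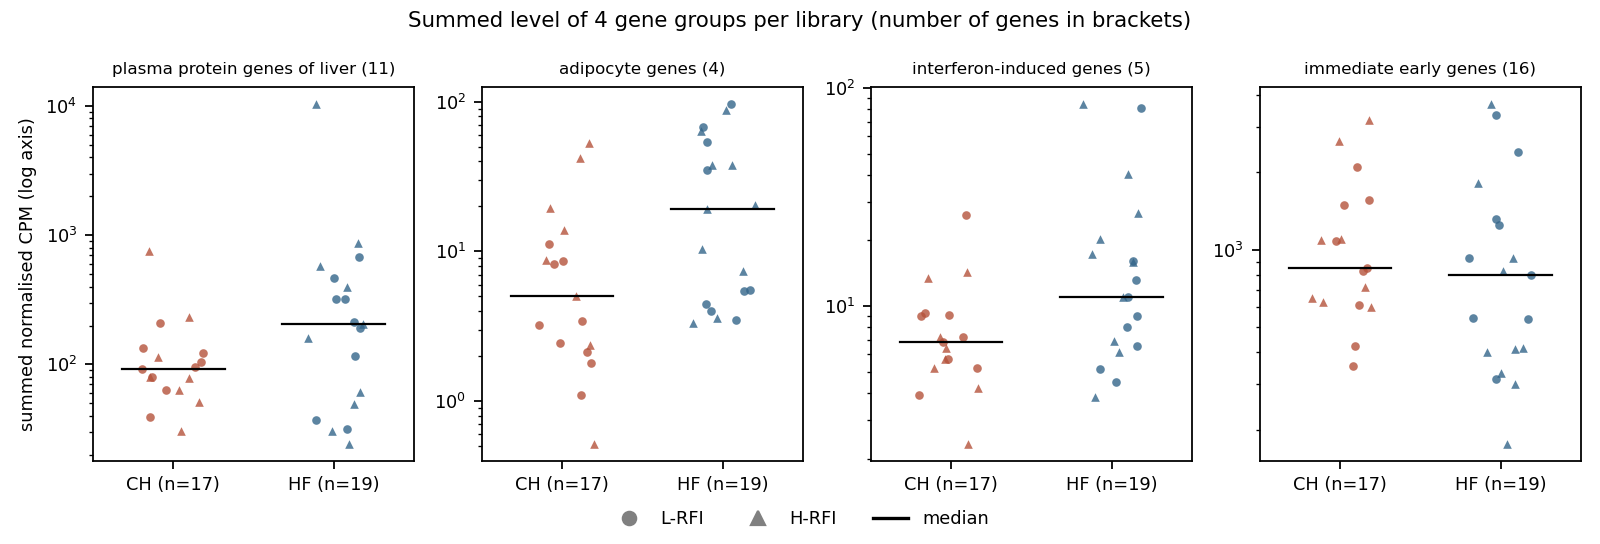
Summed normalised CPM per library (log axis) of 4 gene groups by breed, with circles for L-RFI, triangles for H-RFI and a bar for the median. Medians are 93.0 and 206.5 CPM for the plasma protein genes and 5.07 and 19.2 CPM for the adipocyte genes in CH and HF, and the groups overlap in each panel.

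Whether the breed difference depended on RFI class was tested with an interaction term. At an adjusted p under 0.1, 0 of 10211 genes (0%) passed with edgeR's quasi-likelihood test, with a smallest adjusted p of 0.918. At an unadjusted p under 0.05 there were 155, fewer than the 510.55 expected by chance among independent genes. limma voom with sample quality weights also gave 0 at an adjusted p under 0.1, with 1315 at an unadjusted p under 0.05. The named genes with the smallest p-values were SNX10 (1.94, SE 0.65), ZC3H12A (−1.41, SE 0.51) and SLC4A7 (1.88, SE 0.72), where the value is the difference of the breed effect between L-RFI and H-RFI steers. Within L-RFI steers the breed difference of ACTC1 was −2.91 (SE 0.74) and within H-RFI steers −1.20 (SE 0.48), and that of MYH4 was 1.82 (SE 0.52) and 0.88 (SE 0.25). The interaction terms of both genes had an adjusted p of 0.918 in the quasi-likelihood test. The highest values were those of L-RFI steers, 310.8 CPM for ACTC1 in HF steer 2065 and 43.2 CPM for MYH4 in CH steer 318. The HF medians of ACTC1 were 17.3 CPM in L-RFI and 17.2 CPM in H-RFI steers.

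The same contrast was then measured in animals that gave no analysed ZG library. Some of these steers gave a library in both H1 and H2, so the results of these phases are not independent of each other. In H1, with 13 CH and 14 HF such steers, 51 of the 52 genes had the direction seen on grass (98.1%), against 65.9% of all genes, and 23 also had an unadjusted p under 0.05 (44.2%), against 6.68% of all genes. One of the 52 passed both thresholds there, MYH4, at a log2 fold change of 3.71 (SE 0.66, adjusted p = 0.0511). In H2, with 9 CH and 14 HF such steers, 41 of 49 tested genes had the same direction (83.7%), against 34.9% of all genes, and 12 had an unadjusted p under 0.05 (24.5%), against 6.56%. Most genes thus ran the other way in these H2 steers. By direction, 16 of 16 genes higher in CH and 35 of 36 genes higher in HF kept their sign in H1, and 13 of 16 and 28 of 33 in H2. Over all 14 CH and 16 HF steers analysed in H2, 42 of 49 genes had the same direction (85.7%), against 51.1% of all genes. Those steers included 7 that also gave an analysed ZG library.

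The named genes differed in how they carried over. MICAL2 was at 0.64 (SE 0.24) in H1 and 0.44 (SE 0.27) in H2, and ACSM1 at −0.89 (SE 0.44) and −1.04 (SE 0.39). BDH1 was at −0.30 (SE 0.33) and 0.01 (SE 0.37), near 0 in both. ACTC1 had the other sign in H1 (0.26, SE 0.33) and −1.34 (SE 0.63) in H2. Of genes not past the thresholds on grass, FABP4 was at −0.89 (SE 0.49) and −1.49 (SE 0.63), ELOVL6 at −0.96 (SE 0.37) and −1.26 (SE 0.57), and ALB at −0.98 (SE 0.51) and −1.17 (SE 0.59).

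**Figure D5:**
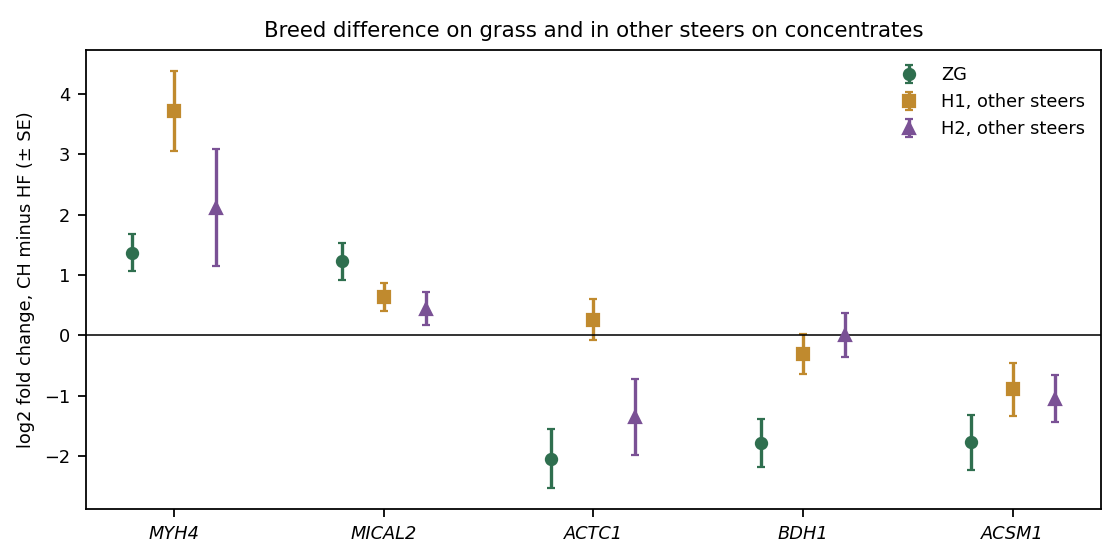
Log2 fold change of CH minus HF with its SE for the 5 named genes on grass (green) and, on high concentrate, in the steers of H1 (orange) and H2 (violet) that gave no analysed ZG library. MYH4 is above 0 in all 3 and ACSM1 below, while BDH1 lies near 0 (−0.30 and 0.01) on both high concentrate diets.

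Over all analysed steers, 110 genes (1.03%) passed the thresholds between the breeds in H1, with 20 higher in CH and 90 higher in HF, and 1 gene (0.01%) did in H2. Differences in such counts do not test whether the breed effect changed between the phases. The effect on grass was therefore set against the mean of H1 and H2 in 1 model of 104 libraries with the steer as a block. The phases followed each other as the steers grew, so diet, age and body weight cannot be told apart in this test. Of 10291 genes, 1 (0.00972%) passed an adjusted p under 0.1, and 615 (5.98%) were at an unadjusted p under 0.05. The gene was ENSBTAG00000019509, with a difference of −1.23 (SE 0.26, adjusted p = 0.0602). Its level ran from 0 to 1.23 CPM in CH and from 0.450 to 3.86 CPM in HF on grass, with medians of 0.576 and 1.26 CPM. The medians were 1.36 CPM in CH and 1.29 CPM in HF in H1, and 0.992 CPM and 0.743 CPM in H2. It was below the filter for low counts on grass and in H2, and it did not pass without the block.

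Among the named genes the smallest unadjusted p of that test was that of BDH1 (difference −1.29, SE 0.39, unadjusted p = 0.00134, adjusted p = 0.787). MICAL2 (0.86, SE 0.32), ACTC1 (−1.14, SE 0.51), FOSB, an immediate early gene (2.05, SE 0.93), and MYL6B (−1.09, SE 0.51) followed, each with an adjusted p of 0.787. The breed difference of FOSB was near 0 on grass (0.07, SE 0.81) and below 0 in H1 (−0.88, SE 0.67) and H2 (−1.45, SE 0.45). For BDH1 the CH medians were 4.81 CPM in H1, 2.18 in ZG and 3.03 in H2, and the HF medians 4.33, 5.20 and 2.62 CPM. The breed difference of BDH1 was thus not shown to differ between the phases at the threshold used.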

How the data were processed

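The authors aligned single-end reads of stranded mRNA libraries with STAR (2.5.1 in the submitters' processing notes, which name UMD3.1, where the study's methods name ARS-UCD1.2) and deposited raw counts per Ensembl gene, unnormalised. No coordinates were used. The reverse-strand counts, 98.4% to 99.3% of the stranded counts, were analysed. A gene was tested if 50% or more of the libraries reached 1 CPM. The main test was edgeR 4.0.16 (R 4.3.3), quasi-likelihood with TMM factors and RFI class as covariate, with Benjamini-Hochberg adjusted p under 0.1 and fold above 1.5. The steers differ between breeds, and a p-value measures the spread between steers. The phase test used limma 3.58.1 (voom, duplicateCorrelation by steer, consensus correlation 0.128). Floors cover counting error only.

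Symbols came from the study's supplementary list of 198 identifiers, 25 of them not matched here, which was chosen on these libraries. The members and gene lists were chosen with earlier results of these data known. Named were the called genes with a symbol, list members with the smallest p-values (those at an unadjusted p under 0.05 and representative others), 9 genes fixed by name, the top genes of the interaction tests and 2 unnamed genes per direction. Alternatives were DESeq2 1.42.0, voom with quality weights, other models, filters, scalings and sample sets. Lists of glycolysis, heat shock, circadian, antigen presentation, red blood cell, Schwann cell, epidermis and muscle identity genes had no member with a symbol. Figures were drawn with matplotlib 3.10.9.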

Additional observations from a re-analysis of the deposited data

Results flagged for a closer look

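Within the 4 groups of breed and RFI class, 12 measures (the called genes described, 2 summed gene groups and depth) were searched for a single library apart from its group, on log2 values with an offset of 0.1 CPM. Of 48 such groups, 3 held one, where about 1 in 20 do so by chance. MYH4 in CH L-RFI steer 318 was at 43.2 CPM, the next highest at 6.77 CPM. MYH4 in HF L-RFI steer 1668 was at 0.702 CPM, the next lowest at 1.90 CPM. MICAL2 in HF H-RFI steer 5605 was at 2.16 CPM, the next lowest at 10.97 CPM.

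The breed difference of ENSBTAG00000019509 differed between grass and the mean of the high concentrate diets by −1.23 on the log2 scale in a test of that difference. It did not pass with limma voom and no replicate block (adjusted p = 0.113). With all libraries kept the difference was −0.72 (limma voom with the steer as a block, adjusted p = 0.996). In the library of steer 571, which the main comparison left out, the 11 plasma protein genes summed to 164179 CPM, where the highest analysed library reached 15947 CPM, both before TMM scaling.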

How the results depend on the processing

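The count of 52 genes stayed within 1.5 times under 6 of 21 alternatives and in 5 of 36 fits that left out 1 steer (range 1 to 198). It was 199 with DESeq2, 989 with voom and quality weights, 238 with edgeR's exact test without the RFI covariate, 170 with the main test without it, 110 with no filter and 323 in 1 model of all phases. It was 24 at a fold above 2, 10 with only steer 571 left out, 1 at an adjusted p under 0.05 and 1 with all ZG libraries kept. In L-RFI steers only it was 0 (554 genes at an unadjusted p under 0.05), and in H-RFI steers only 0 (1112). Chosen after seeing the data were the fits without the 8 libraries of low rank correlation (0 genes), with the plasma sum as covariate (0), with steer 571 kept (1) and with the share of reads on no gene (40). For counts that changed with a method, the cause was not tested.

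The 5 named calls kept their side of the thresholds in 9 of 18 settings, and 670 of 701 values of the named genes kept their direction. With all ZG libraries kept, values turned positive for ACSM1 (0.96), C5 (0.74), FGB (0.55), ELOVL6 (0.37), FGG (0.22), CP (1.17), ORM1 (0.65), PLG (0.91), HPX (0.31), AHSG (0.89), VTN (0.78), ALB (0.53) and CASP4 (0.17). With only steer 571 kept beyond the 36, they were 1.02, 1.19, 0.99, 0.36, 0.97, 1.47, 1.203, 1.18, 1.06, 1.19, 1.06, 1.28 and 0.17 in that order. With the plasma sum as covariate ORM1 was at 0.0075, AHSG at 0.012 and ALB at 0.050. These genes are themselves part of that sum, which draws their values towards 0, so no conclusion is drawn from their change of sign. MYH8 was at −0.053 in L-RFI steers, and PDK4 at 0.067 without those 8 libraries and −0.51 to 0.015 with 1 steer left out.

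The phase test gave 0 genes with edgeR and no replicate block (657 at an unadjusted p under 0.05), 0 with limma voom and no replicate block (623) and 0 with all libraries kept (260). In other steers only, the breeds differed at 8 genes in H1 and 0 in H2 (edgeR, 1201 at an unadjusted p under 0.05). The depth difference was 0.023 on the log10 scale and −0.035 with all ZG libraries kept. No paired analysis was possible because the steers of the breeds are different animals. Depth limits the low genes: 3 counts reach 0.774 CPM in the shallowest library.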
